A study of Mus musculus with 4 samples.

Results

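The genes that copy DNA were followed in single-cell RNA-Seq of LSK cells from mouse bone marrow, sorted as negative for lineage markers and positive for Sca-1 and cKit, among which are both the stem cells of blood and early multipotent progenitors. The members were 39 genes chosen by symbol out of the 32285 genes of the count tables, and each symbol matched 1 gene. They comprised 10 genes of origin licensing (Orc1, Orc6, Cdc6, Cdt1 and Mcm2 to Mcm7), 6 of helicase activation (Mcm10, Cdc45 and Gins1 to Gins4), 7 of the polymerases and primase (Pola1, Pola2, Pold1, Pold3, Pole, Prim1 and Prim2), 7 of the sliding clamp, its loaders and cohesion (Pcna, Rfc1 to Rfc5 and Dscc1), 4 for single-stranded DNA and ligation (Rpa1, Rpa2, Fen1 and Lig1), 2 for nucleotide supply (Rrm1 and Rrm2), and the regulators E2f1, Hells and Slbp. Wild-type C57BL/6 mice, which carried the floxed Sin3b allele without Cre (Sin3B F/F) per the study's methods, were compared with knockout mice carrying the same floxed allele and Vav1-iCre, a driver active in hematopoietic cells from before birth. A library held cells of untreated mice (homeostasis, male mice) and the other cells taken 9 days after 5-fluorouracil (5-FU, 100 mg/kg, intraperitoneal), an analog of the base uracil that kills dividing cells. Each genotype was a pool of 2 mice per library, told apart by hashtag antibody, so a group was 1 pool. For that reason no test between genotypes was run, both values are given, and every interval printed is a 95% counting interval that leaves out the variation between mice. Condition and library coincided and could not be told apart, so levels are set side by side across libraries and not compared.

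Replication starts from origins that are loaded in G1. The origin recognition complex, with Cdc6 and Cdt1, places a ring of Mcm2 to Mcm7, the core of the replicative helicase, on DNA. Cdc45 and the GINS complex turn the ring into an active helicase with the help of Mcm10, polymerase alpha and primase lay down primers, and polymerases delta and epsilon extend them on the Pcna clamp, which the Rfc complex loads. Many of these genes are transcribed under E2F factors at the passage from G1 to S phase, and in quiescent cells E2F sites are held silent by the DREAM complex, with which the cofactor Sin3b associates. Most long-term stem cells rest outside the cycle while the progenitors below them divide.

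Sin3b, the deleted gene, measured 81.9 CPM (counts per 1e+06 UMIs of the pool) for wild type and 23.2 CPM for knockout at homeostasis, and 113 and 15.1 CPM after 5-FU, log2 ratios of -1.82 and -2.90. Filtering kept 10284 cells of wild type and 4120 of knockout at homeostasis (median 6982 and 6620 UMIs per cell) and 4837 and 3292 after 5-FU (median 9295 and 10946.5). Cells were sorted into classes after each had been thinned to 4000 UMIs. A cell entered the stem gate when it held UMIs of at least 3 of 9 stem cell genes (among them Procr, Hlf, Mecom, Fgd5, Mllt3, Hoxb5, Pdzk1ip1 and Clec1a) and of fewer than 3 genes of each of the neutrophil, megakaryocyte-erythroid and lymphoid lists. Single UMIs thus counted toward the gates, and barcodes of 1 to 100 UMIs in the homeostasis library held the stem list at 1187 CPM and the neutrophil list at 693 CPM, a background whose part in the classes was not tested. Progenitors were the cells primed for 1 of those lineages plus the marker-low cells with fewer than 3 genes of every list. At homeostasis 2893 cells of wild type (28.1%) and 1829 of knockout (44.4%) were in the stem gate, and 1277 (26.4%) and 1176 (35.7%) after 5-FU. Cells with markers of more than 1 list made up 33.1% and 26.2% at homeostasis and 14.7% and 13.5% after 5-FU and were left out, as were cells under 4000 UMIs (after 5-FU 10.6% for wild type and 5.01% for knockout, where the gap was wider than at homeostasis). HTODemux gave no tag to 26.3% and 25.8% of cells, and Sin3b in these untagged cells measured 28.1 and 18.4 CPM, nearer the knockout than the wild-type level. These cells entered no comparison, and the part of that loss in the results was not tested.

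Promoter sequences were read for the members because the study concerns a cofactor of E2F-site repression. RefSeq windows from 250 bases before to 49 bases past the start base (GRCm38.p6) were at hand for 31 of the 39 members, 35 windows in all. On the GENCODE annotation every window of Cdc6, E2f1 and Mcm7 lay within the gene, as did the Lig1 window that held a match below. Distances are therefore from the RefSeq start, which can differ from the GENCODE start. Letters of the E2F type (TTTCCCGC, TTTGGCGC or TTTCGCGC, on either strand, overlaps counted) stood in the windows of 14 of the 31 members. That was 40% of the members' windows against 1.84% of the 32851 windows of all genes. TTTCCCGC was found in 22.9% of the members' windows and 1.07% of all windows, TTTGGCGC in 14.3% and 0.514%, and TTTCGCGC in 17.1% and 0.323%. CCAAT, the NF-Y box common in cell cycle promoters, was in 60% against 37.4% of windows. TTTGAA, the core of the CHR element of mitotic promoters, went the other way, with 11.4% of the members' windows against 17.9% of all. The shares are descriptions of letters. Windows were not matched for base composition, and those of the members ranged from 38.7% (Cdc45) to 77.3% (E2f1) G and C. They say nothing of whether a factor bound there.

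The stretches below run from 170 bases before the start base to 49 past it, 5′ to 3′ on the gene's strand, with E2F-type letters in capitals. The first 6 are members whose windows hold them, chosen because they span licensing (Mcm6, Mcm5, Mcm3, Orc1 and Cdt1) and chromatin (Hells). The last 2, Mcm10 and Rrm2, hold none of the 3 forms. They are shown because Mcm10 had the widest range over the cell cycle states described later and Rrm2 the steepest last step. The window of Mcm10 ends in all but the last letter of TTTGGCGC, and the next base was not read.
Mcm6, chr1:128359656-128359875, minus strand: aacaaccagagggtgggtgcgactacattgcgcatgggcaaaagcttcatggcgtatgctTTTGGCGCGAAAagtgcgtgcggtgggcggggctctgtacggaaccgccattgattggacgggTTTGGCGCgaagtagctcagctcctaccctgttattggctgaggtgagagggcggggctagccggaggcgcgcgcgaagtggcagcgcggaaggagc
Mcm5, chr8:75109339-75109558, plus strand: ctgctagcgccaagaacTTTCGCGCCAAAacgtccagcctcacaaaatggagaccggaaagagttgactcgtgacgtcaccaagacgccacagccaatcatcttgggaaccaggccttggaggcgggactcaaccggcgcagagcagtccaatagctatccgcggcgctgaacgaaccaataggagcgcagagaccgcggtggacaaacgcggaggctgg
Mcm3, chr1:20820263-20820482, minus strand: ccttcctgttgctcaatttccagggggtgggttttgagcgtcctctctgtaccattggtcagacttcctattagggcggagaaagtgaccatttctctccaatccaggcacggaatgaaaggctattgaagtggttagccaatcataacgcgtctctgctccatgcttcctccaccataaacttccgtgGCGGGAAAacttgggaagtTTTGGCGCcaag
Orc1, chr4:108579284-108579503, plus strand: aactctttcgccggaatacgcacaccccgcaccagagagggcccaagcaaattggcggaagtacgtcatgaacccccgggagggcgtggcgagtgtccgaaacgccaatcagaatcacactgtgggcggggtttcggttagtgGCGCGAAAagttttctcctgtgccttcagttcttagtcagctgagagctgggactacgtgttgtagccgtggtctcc
Cdt1, chr8:122567845-122568064, plus strand: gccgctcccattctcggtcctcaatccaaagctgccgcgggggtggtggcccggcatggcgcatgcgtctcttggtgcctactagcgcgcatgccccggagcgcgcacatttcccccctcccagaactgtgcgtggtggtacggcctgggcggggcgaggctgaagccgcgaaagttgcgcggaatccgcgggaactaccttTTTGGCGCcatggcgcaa
Hells, chr19:38930820-38931039, plus strand: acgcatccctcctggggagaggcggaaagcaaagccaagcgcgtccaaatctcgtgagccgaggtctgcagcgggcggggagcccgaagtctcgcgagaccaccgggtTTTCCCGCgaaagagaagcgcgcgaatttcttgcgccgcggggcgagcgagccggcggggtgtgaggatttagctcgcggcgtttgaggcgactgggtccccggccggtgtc
Mcm10, chr2:5012742-5012961, minus strand: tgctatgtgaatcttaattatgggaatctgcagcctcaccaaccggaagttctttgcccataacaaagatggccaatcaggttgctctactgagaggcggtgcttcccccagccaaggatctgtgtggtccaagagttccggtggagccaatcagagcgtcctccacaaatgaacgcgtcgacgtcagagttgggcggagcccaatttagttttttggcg
Rrm2, chr12:24708084-24708303, plus strand: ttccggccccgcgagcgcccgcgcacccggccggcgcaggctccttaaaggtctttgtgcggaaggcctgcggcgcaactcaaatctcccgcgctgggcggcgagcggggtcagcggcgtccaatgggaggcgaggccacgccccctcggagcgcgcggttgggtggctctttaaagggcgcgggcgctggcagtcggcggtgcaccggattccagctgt

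In Mcm6 and Mcm5 a pair of forms overlapped on opposite strands within 1 run of capitals, and Mcm6 held a further match nearer its start. Over the members 20 matches were found between -165 and 39 bases from the start base, 13 of them within 100 bases of it. Licensing genes held most of them. The windows of Cdc6, Cdt1, Mcm3, Mcm5, Mcm6, Mcm7 and Orc1 had at least 1 match, and of the licensing genes with a window only Mcm2 and Orc6 had none. Among the 7 clamp, loader and cohesion genes, only the window of Rfc3 held a match, and none was found for Pcna, Rfc1, Rfc4 and Rfc5, while Rfc2 and Dscc1 had no window.

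**Figure D1:**
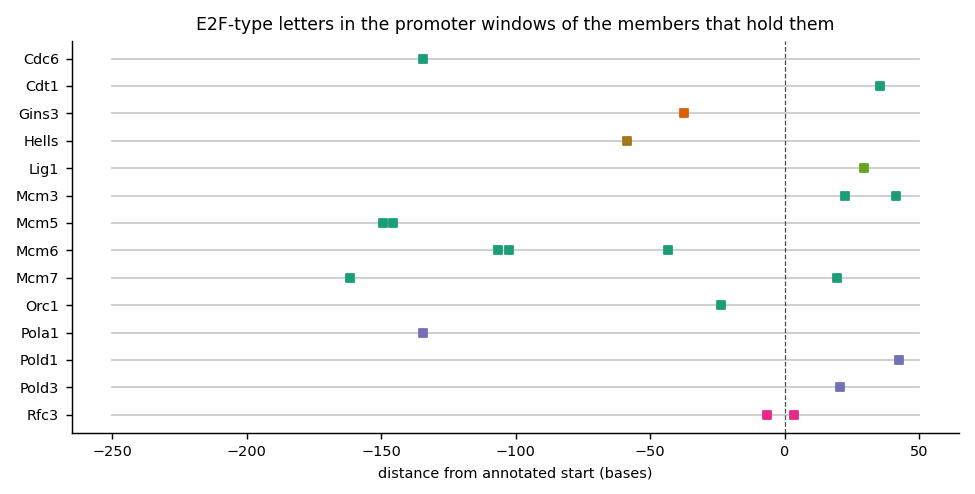
Squares mark the middle of each E2F-type match on a line for each member that held one, against the distance from the annotated start in bases (dashed line at 0), with colours by role as in the plot of ratios. The matches of 14 members lie on both sides of the RefSeq start, with none farther before it than Mcm7's at -165.

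The stem gate held less replication mRNA than progenitors in both libraries. In wild-type cells the 39 members summed to 2461 CPM in progenitors and 1692 CPM in the stem gate at homeostasis, a log2 ratio of -0.54 (-0.56 to -0.52). After 5-FU the same sums were 2672 and 1293 CPM, a log2 ratio of -1.05 (-1.07 to -1.02). All 39 members were lower in the stem gate in both libraries. At least 1.5-fold lower were 20 of 39 members at homeostasis, where 4.54% of all tested genes were, and 34 of 39 after 5-FU, where 6.85% were. The median over all tested genes lay at 0.065 and 0.12, so scaling by that median would widen the members' gap.

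The members differed in how far they were lowered in the stem gate. Mcm10, which links the helicase to polymerase alpha, gave 20.2 and 9.78 CPM at homeostasis (log2 -1.05) and 24.2 and 3.47 CPM after 5-FU (log2 -2.78) in wild-type progenitors and stem gate. Rrm2, the small and cell cycle-limited subunit of ribonucleotide reductase, gave 22.5 and 11.2 CPM at homeostasis (log2 -0.9996) and 39.97 and 7.19 CPM after 5-FU (log2 -2.47). Rfc1, the large subunit of the clamp loader, gave 149.9 and 127 CPM at homeostasis (log2 -0.24) and 127 and 98.8 CPM after 5-FU (log2 -0.36). Mcm10 and Rrm2 thus stood apart most and Rfc1 least among these 3. Pole, the leading-strand polymerase, was nearly level after 5-FU (33.1 and 31.8 CPM, log2 -0.054) and lower in the stem gate at homeostasis (log2 -0.56).

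Summed over members, knockout and wild type diverged in opposite directions in the stem gate at homeostasis and in progenitors after 5-FU. At homeostasis the stem gate's members summed to 1692 CPM in wild type and 1495 CPM in knockout, log2 -0.18 (-0.20 to -0.15), and 31 of 39 were lower in knockout. Only 8 of 39 were higher, against 49.6% of the genes tested, and over the alternatives 3 to 13 were. Progenitors after 5-FU had sums of 2672 and 3257 CPM, log2 0.29 (0.27 to 0.30), and all 39 of 39 members were higher in knockout, against 44.2% of the genes tested. Over 10 alternatives 37 to 39 were higher there, with Mcm10 and Pold1 each turning sign in 1. The median member was at -0.22 and 0.28 on the log2 scale in these comparisons, where the median gene was at -0.0023 and -0.039.

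The other comparisons gave smaller differences. In progenitors at homeostasis the members summed to 2461 CPM in wild type and 2602 CPM in knockout, log2 0.080 (0.059 to 0.10), with 31 of 39 higher (22 to 32 over alternatives) against 47.4% of the genes tested. This sum was at 0.000502 when tags were called by a mixture model and 0.0090 with mixed cells added. The classes behind it differed, with log2 ratios of the sum of 0.10 (0.050 to 0.15) in neutrophil-primed, 0.15 (0.12 to 0.19) in lymphoid-primed and 0.031 (-0.0057 to 0.067) in marker-low cells. In megakaryocyte-erythroid-primed cells, 214 of wild type and 87 of knockout, the sum was lower in knockout, 3323 and 2868 CPM (log2 -0.21, -0.28 to -0.15). After 5-FU the stem gate's members summed to 1293 and 1345 CPM, log2 0.057 (0.025 to 0.088), with 27 of 39 higher (17 to 35 over alternatives) against 47.8%. The sign of this last sum turned to -0.041 when each cell was weighted equally and to -0.035 when the gate asked for 4 markers, so no direction is read from it.

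Single members rarely passed 1.5-fold. At homeostasis no member did in either direction, in the stem gate (where 3.86% of tested genes were past it higher and 4.91% lower) or in progenitors (3.48% higher and 5.74% lower). After 5-FU Mcm10 passed it in the stem gate (3.23% of tested genes higher and 3.43% lower) and Fen1 in progenitors (2.72% higher and 5.57% lower), both higher in knockout. With tags called by the mixture model Fen1 stood at 0.58, just under 1.5-fold, and Mcm10 at 0.39, and with the gate from 4 markers Mcm10 fell to 0.054. Over the alternatives run, members past 1.5-fold numbered 0 to 3 in the homeostatic stem gate, 0 to 2 in homeostatic progenitors, 0 to 4 in the 5-FU stem gate and 0 to 3 in 5-FU progenitors. The share of all genes past it was not computed for the alternatives, so these counts have no background beside them.

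**Figure D2:**
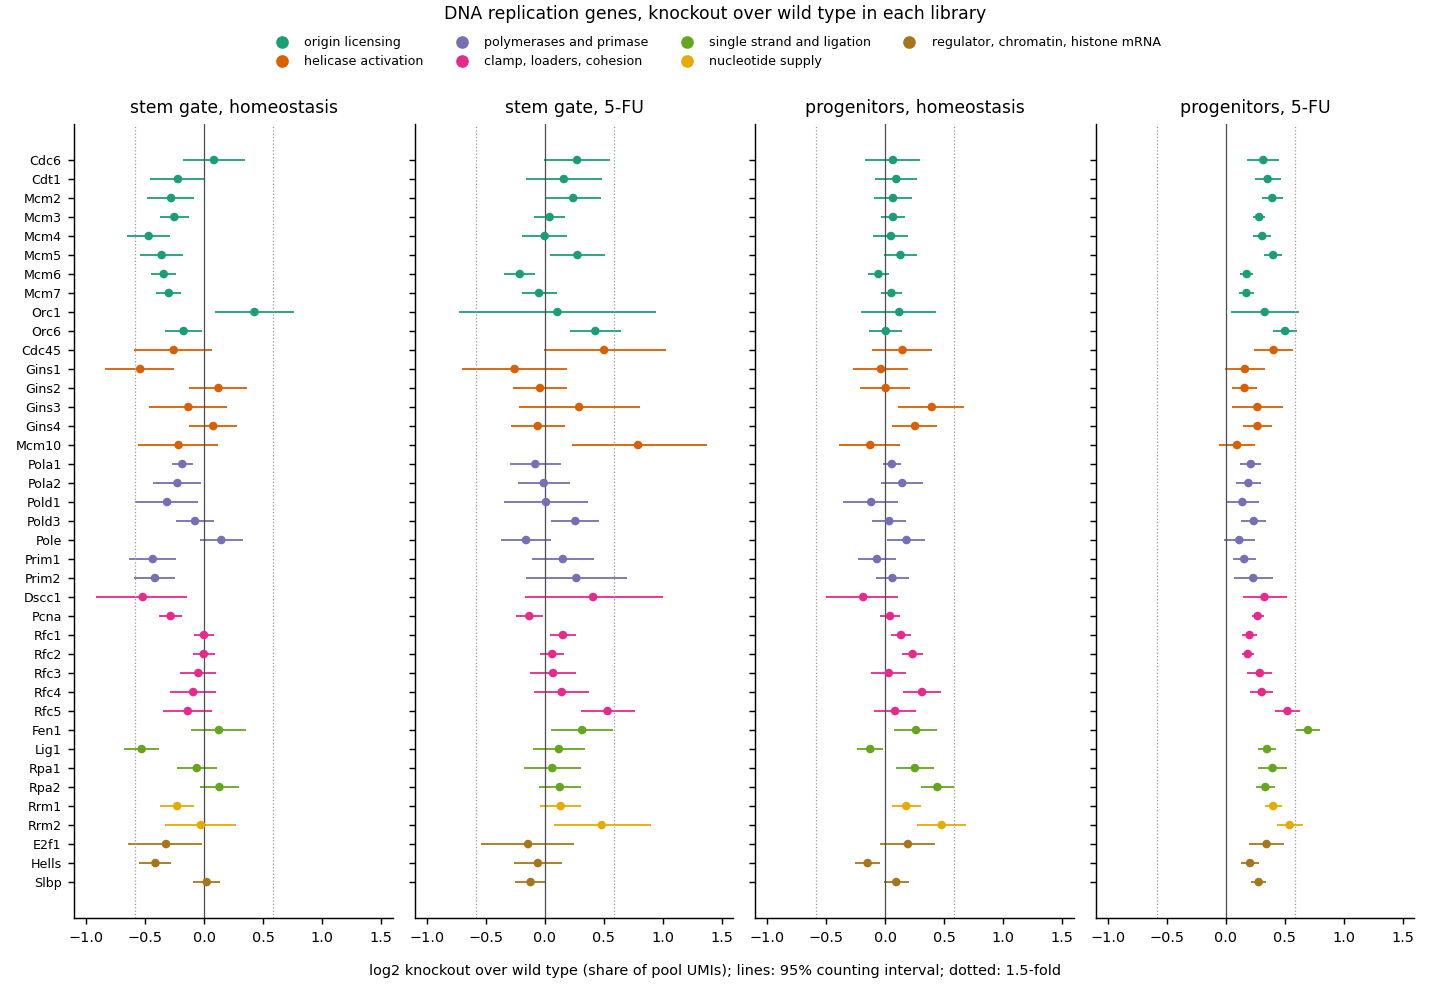
Points give each member's log2 ratio of knockout over wild type in 1 of 4 comparisons, lines its 95% counting interval, colours its role, and dotted lines 1.5-fold. In the stem gate at homeostasis 31 of 39 points lie left of 0, and in progenitors after 5-FU all 39 lie right of it, with Fen1 past the dotted line.

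Origin licensing genes had the same signs as the member sums in the homeostatic stem gate and in progenitors after 5-FU. In the homeostatic stem gate they lay farther from 0 than all members summed (log2 -0.18). Their summed level in the stem gate at homeostasis was 467 CPM in wild type and 387 in knockout (log2 -0.27, -0.32 to -0.23), with 8 of 10 lower. Progenitors after 5-FU had 868 and 1062 CPM (log2 0.29, 0.27 to 0.32), with 10 of 10 higher. Mcm5 stood at 34.6 CPM in the wild-type and 26.9 in the knockout stem gate at homeostasis and at 23.6 and 28.6 CPM after 5-FU, and in progenitors at 59.1 and 64.7 CPM at homeostasis and 86.5 and 114 after 5-FU. Its ratio was below 0 in the homeostatic stem gate (log2 knockout over wild type -0.36 and 0.28 in the stem gate and 0.13 and 0.40 in progenitors, homeostasis first). In homeostatic progenitors the interval spanned 0 (-0.0099 to 0.27). Stem-gate Mcm2 measured 28.4 CPM (wild type) and 23.4 CPM (knockout) at homeostasis against 22.7 and 26.9 CPM after 5-FU, while progenitors gave 46.6 and 48.8 CPM and then 67.6 and 89.00 CPM. Mcm2 had the same order of signs as Mcm5 (-0.28 and 0.24 in the stem gate). Mcm6 stood at 107 CPM in the wild-type and 84.3 in the knockout stem gate at homeostasis and at 85.6 and 73.9 CPM after 5-FU, and in progenitors at 159 and 152 CPM at homeostasis and 174 and 198 after 5-FU. Mcm6 was lower in the knockout stem gate in both libraries (-0.34 and -0.21, the latter turning sign in 1 of 10 alternatives) and higher in progenitors after 5-FU (0.18, 0.12 to 0.24), and Mcm7 stood at -0.30, -0.048 and 0.18 in those 3 comparisons. Mcm4 had the log2 ratio farthest from 0 of the ring subunits in the homeostatic stem gate, at 35.9 CPM in wild type and 25.9 CPM in knockout (-0.47, -0.66 to -0.29).

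The loaders of the ring were less uniform. Stem-gate Cdc6 measured 14.1 CPM (wild type) and 14.9 CPM (knockout) at homeostasis against 16.2 and 19.6 CPM after 5-FU, while progenitors gave 22.1 and 23.1 CPM and then 28.9 and 36.00 CPM. Cdc6, an ATPase that loads the ring with Cdt1, barely differed between genotypes at homeostasis (0.083 and 0.066) and was higher in knockout progenitors after 5-FU (0.32). In the stem gate after 5-FU its interval reached just past 0 (0.27, -0.0037 to 0.55). Cdt1 stood at 20.7 CPM in the wild-type and 17.7 in the knockout stem gate at homeostasis and at 12.4 and 13.9 CPM after 5-FU, and in progenitors at 36.8 and 39.3 CPM at homeostasis and 43.1 and 55.2 after 5-FU. Cdt1, the partner of Cdc6, had a ratio under 0 in the homeostatic stem gate, with an interval that reached just past 0 (-0.22, -0.46 to 0.0067). In progenitors after 5-FU Cdt1 was higher in knockout (0.36, 0.25 to 0.47). Orc1, the cycling subunit of the origin recognition complex, was the member farthest above 0 in the homeostatic stem gate, with 169 UMIs in wild type and 139 in knockout, or 7.76 and 10.4 CPM (log2 0.43, 0.091 to 0.76). Over 9 alternatives Orc1 ranged from -0.051 to 0.43 there, with 1 below 0. Orc6 differed in sign between the libraries, at 43.1 CPM in wild type and 38.2 CPM in knockout in the homeostatic stem gate (log2 -0.17) and 26.1 CPM in wild type and 35.2 CPM in knockout after 5-FU (log2 0.43, 0.22 to 0.64). Orc6 was also among the 5 members with the largest differences in progenitors after 5-FU (50.4 CPM in wild type and 71.5 CPM in knockout, log2 0.50).

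Helicase activation genes were sparse, and their intervals are wide. Gins1 was the lowest member in the homeostatic stem gate, with 14.9 CPM in wild type and 10.2 CPM in knockout (log2 -0.54, -0.84 to -0.25), and also the lowest in the stem gate after 5-FU, where 98 and 79 UMIs left an interval on both sides of 0 (-0.25, -0.70 to 0.19). Its partner Gins2 did not move with it. Gins2 stood at 16.1 CPM in the wild-type and 17.5 in the knockout stem gate at homeostasis and at 26.9 and 26.2 CPM after 5-FU, and in progenitors at 27.9 and 27.9 CPM at homeostasis and 49.8 and 55.7 after 5-FU. In neither gate at homeostasis did Gins2 differ beyond its counting interval (-0.12 to 0.36 and -0.21 to 0.21), and in progenitors after 5-FU it was among the 5 smallest ratios (0.16, 0.055 to 0.27). Gins3 was higher in knockout progenitors at homeostasis, 12.7 CPM in wild type and 16.7 CPM in knockout (log2 0.40, 0.11 to 0.67). Cdc45 was higher in knockout progenitors after 5-FU (19.02 CPM in wild type and 25.2 CPM in knockout, log2 0.41, 0.24 to 0.57). In the stem gate its 57 and 78 UMIs gave 0.50 (-0.0040 to 1.03), which turned sign in 2 of 10 alternatives. The single member past 1.5-fold in the stem gate, Mcm10, rested on 43 wild-type and 72 knockout UMIs after 5-FU, 3.47 and 6.04 CPM (log2 0.79, 0.23 to 1.38). Homeostatic progenitors held Mcm10 at 20.2 and 18.5 CPM (log2 -0.13, -0.39 to 0.12). After 5-FU Mcm10 was the progenitor member with the smallest ratio (0.10, -0.057 to 0.25).

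Polymerase and primase genes shared the lower knockout level in the homeostatic stem gate, with 6 of 7 below wild type and summed levels of 319 and 278 CPM (log2 -0.20, -0.25 to -0.14). Both primase subunits were prominent there. Prim1, the catalytic one, measured 30.9 CPM in wild type and 22.8 CPM in knockout (log2 -0.44, -0.64 to -0.24), and Prim2 39.1 CPM in wild type and 29.2 CPM in knockout (log2 -0.42, -0.59 to -0.24). Pole was the exception at 28.9 CPM in wild type and 31.9 CPM in knockout (log2 0.15, -0.036 to 0.32), and after 5-FU the stem gate held Pole at 31.8 and 28.5 CPM (log2 -0.16, -0.37 to 0.055). Pold1, the catalytic subunit of polymerase delta, was among the 5 smallest ratios in progenitors of both libraries, at 24.98 and 22.98 CPM at homeostasis (log2 -0.12, -0.35 to 0.11) and 29.1 and 32.1 CPM after 5-FU (0.14, 0.0036 to 0.28, but -0.071 in 1 of 10 alternatives). Prim1 in progenitors after 5-FU measured 57.7 and 64.3 CPM (0.16, 0.060 to 0.26). In progenitors after 5-FU the 7 genes lay between 0.12 for Pole and 0.24 for Pold3, and their sum of 307 and 349 CPM gave the smallest ratio of the 7 roles (log2 0.19, 0.15 to 0.23). Pola1 and Prim2 span 327389 and 215986 bases (chrX:93304767-93632155 and chr1:33453810-33669795, minus strand, GENCODE M21, GRCm38), the longest members. Side by side, Pola1 stood at 194 and 69.96 CPM and Prim2 stood at 59.2 and 19.5 CPM in wild-type progenitors at homeostasis and after 5-FU. Library and condition cannot be told apart there, and the file headers name different Cell Ranger versions.

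Among the clamp, loader and cohesion genes, Pcna and Dscc1 were lower in the homeostatic knockout stem gate, while the intervals of Rfc1 to Rfc5 lay on both sides of 0. Pcna stood at 119 CPM in the wild-type and 97.4 in the knockout stem gate at homeostasis and at 112 and 102 CPM after 5-FU, and in progenitors at 178 and 183 CPM at homeostasis and 212 and 256 after 5-FU. Pcna, the clamp, was lower in the knockout stem gate in both libraries (-0.28, -0.38 to -0.19, and -0.13, -0.24 to -0.018, the latter turning sign in 2 of 10 alternatives) and higher in progenitors after 5-FU (0.27, 0.22 to 0.32). The annotation lists 2 processed copies of Pcna (Pcna-ps1 and Pcna-ps2), and the treatment of reads shared with them is not stated in those sources that were read. Rfc1 and Rfc2 were level in the homeostatic stem gate, Rfc1 at 127 and 127 CPM and Rfc2 at 109.9 and 109.6 CPM. Rfc5 stood out after 5-FU. It measured 22.1 CPM in wild type and 32.1 CPM in knockout in the stem gate (log2 0.53, 0.31 to 0.76) and 46.3 CPM in wild type and 66.6 CPM in knockout in progenitors (log2 0.52, 0.42 to 0.63). Rfc4 was among the 5 highest in progenitors at homeostasis (41.1 CPM in wild type and 51.01 CPM in knockout, log2 0.31). Dscc1, which loads the clamp for cohesion, was at 8.95 CPM in wild type and 6.22 CPM in knockout in the homeostatic stem gate (log2 -0.52, -0.91 to -0.15). It was also the lowest member in homeostatic progenitors, on 446 and 113 UMIs, with an interval on both sides of 0 (-0.19, -0.50 to 0.11).

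The genes that finish the new strands split in the homeostatic stem gate. Lig1, the ligase that joins Okazaki fragments, was lower in knockout, 58.7 CPM in wild type and 40.6 CPM in knockout (log2 -0.53, -0.68 to -0.38). Fen1, the nuclease that trims those fragments, was not, with 17.7 CPM in wild type and 19.3 CPM in knockout (log2 0.13, -0.11 to 0.36). In progenitors after 5-FU Fen1 gave the largest ratio of all members, 1385 wild-type and 1885 knockout UMIs or 45.4 and 73.7 CPM (log2 0.70, 0.60 to 0.80). Lig1 measured 90.8 CPM in wild type and 116 CPM in knockout there (log2 0.35). In homeostatic progenitors Lig1 stood at 99.99 and 91.6 CPM (log2 -0.13, -0.24 to -0.014) and Fen1 at 32.1 and 38.5 CPM (0.26, 0.077 to 0.44), both of which turned sign in 1 of 9 alternatives. Rpa2, a subunit of the single-strand binding complex, was higher in knockout progenitors in both libraries (0.44, 0.30 to 0.58, and 0.34, 0.25 to 0.42), and so was Rpa1 (0.25 and 0.40). In the homeostatic stem gate Rpa2 measured 34.6 and 37.9 CPM (0.13, -0.036 to 0.29). On the annotation 16 of the 39 members overlap a gene on the opposite strand, among them Fen1 (with Tmem258), and 9 overlap one on the same strand. The sources read do not say whether counting used strand.

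Nucleotide supply showed the highest ratio of any role in progenitors of either library. Rrm1 and Rrm2 summed to 95.7 and 114 CPM at homeostasis (log2 0.26, 0.15 to 0.36) and to 141 and 192 CPM after 5-FU (log2 0.44, 0.38 to 0.50). In the homeostatic stem gate their sum was lower in knockout, 62.5 and 54.7 CPM (log2 -0.19, -0.32 to -0.060), with Rrm1 at -0.23. The stem gate after 5-FU gave 49.2 and 56.2 CPM (log2 0.19, 0.032 to 0.35). Rrm2 stood at 11.2 CPM in the wild-type and 11.02 in the knockout stem gate at homeostasis and at 7.19 and 10.1 CPM after 5-FU, and in progenitors at 22.5 and 31.4 CPM at homeostasis and 39.97 and 58.2 after 5-FU. Rrm2 was the highest member in homeostatic progenitors (0.48, 0.27 to 0.68), was also higher in progenitors after 5-FU (0.54, 0.43 to 0.65), and was level in the homeostatic stem gate (-0.028, -0.33 to 0.27). Its 89 and 120 UMIs in the stem gate after 5-FU gave 0.48 (0.078 to 0.90), and 0.0090 with the gate from 4 markers.

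The 3 regulators summed below wild type in the homeostatic stem gate (log2 -0.18) and above it in progenitors after 5-FU (0.26). In the stem gate after 5-FU all 3 had ratios under 0 (log2 of the sum -0.10, -0.21 to 0.0026), and in homeostatic progenitors the sum was level (-0.010, -0.082 to 0.061). Stem-gate E2f1 measured 12.03 CPM (wild type) and 9.60 CPM (knockout) at homeostasis against 9.54 and 8.65 CPM after 5-FU, while progenitors gave 20.3 and 23.2 CPM and then 23.5 and 29.9 CPM. E2f1, the activating factor of the G1 to S passage, was lower in the homeostatic knockout stem gate (-0.32, -0.64 to -0.016, but 0.096 with the gate from 2 markers) and higher in progenitors after 5-FU (0.35, 0.20 to 0.50), and its 5-FU stem ratio was -0.14 (-0.54 to 0.25). Hells, a chromatin remodeler of dividing cells, was at 65.4 CPM in wild type and 49.1 CPM in knockout in the homeostatic stem gate (log2 -0.41, -0.55 to -0.28) and at 115 CPM in wild type and 104 CPM in knockout in progenitors (log2 -0.15, -0.26 to -0.043). Slbp stood at 74.4 CPM in the wild-type and 75.5 in the knockout stem gate at homeostasis and at 79.6 and 73.3 CPM after 5-FU, and in progenitors at 99.9 and 107 CPM at homeostasis and 127 and 155 after 5-FU. Slbp, which binds the histone mRNA stem loop, differed by less than its counting interval in the homeostatic stem gate (-0.093 to 0.14) and was higher in progenitors after 5-FU (0.28, 0.22 to 0.34).

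Pool sums cannot say whether more cells replicated or each replicating cell held more mRNA, so member UMIs were counted in single cells thinned to 4000 UMIs. Most cells held few, with a long upper tail. The median was 4 member UMIs in the wild-type stem gate and 6 in wild-type progenitors at homeostasis, and the 90th percentile 13 and 21. Cells were called replication-high from 7 member UMIs at homeostasis and from 8 after 5-FU, the Otsu thresholds of the libraries, which lie on a shoulder of the distribution. At or 1 UMI below the threshold were 1783 of 13694 cells at homeostasis and 709 of 7452 after 5-FU. The class is therefore a range of a count and not a cell type.

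**Figure D3:**
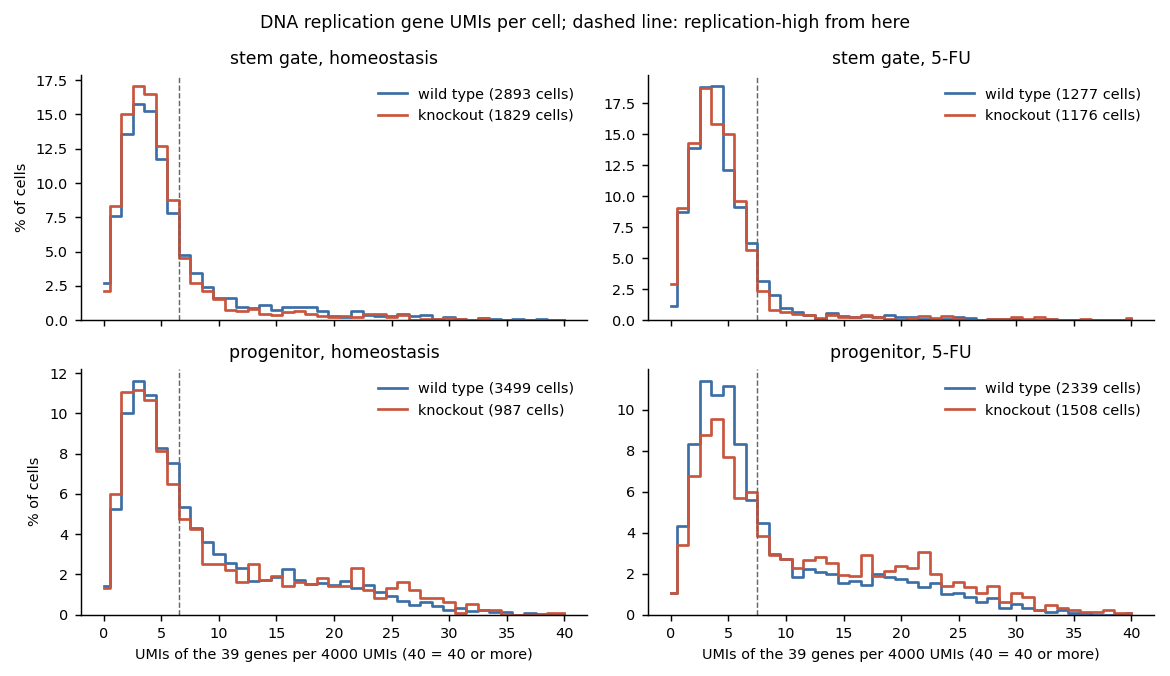
Steps give the percent of cells at each number of UMIs of the 39 genes per 4000 UMIs, for wild-type (blue) and knockout (red) cells in each gate and library, and dashed lines mark where replication-high begins. In progenitors after 5-FU the knockout line lies below the wild-type line from 0 to 6 UMIs and above it over most of the tail.

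In the homeostatic stem gate 25.5% of cells (737 of 2893, 23.9 to 27.1%) were replication-high in wild type and 19.5% of cells (357 of 1829, 17.7 to 21.4%) in knockout, a difference of -5.96 percentage points (-8.34 to -3.52) that ran from -10.05 (thinned to 6000 UMIs) to -0.931 (threshold of 20 UMIs) over alternatives. Homeostatic progenitors showed the smallest gap, at 44.96% (1573 of 3499) and 45.3% (447 of 987), a difference of 0.333 percentage points (-3.16 to 3.86) that ran from -4.72 to 5.36 over 9 alternatives. After 5-FU the stem gate held 10.96% (140 of 1277) and 8.93% (105 of 1176), a difference of -2.03 percentage points (-4.40 to 0.347), which became 0.831 points when cells were thinned to 6000 UMIs. Progenitors after 5-FU held 39.2% of cells (916 of 2339, 37.2 to 41.2%) in wild type and 51.1% of cells (771 of 1508, 48.6 to 53.7%) in knockout, a difference of 11.97 percentage points (8.75 to 15.2), which came down to 7.57 with tags called by the mixture model. With the threshold at 20 member UMIs the last difference was from 12.5% to 20.8%, and the homeostatic stem gate held 4.32% and 3.39%. Without thinning, at the same thresholds, the shares were 51.6% and 48.3% in the homeostatic stem gate and 79.7% and 88.5% in progenitors after 5-FU, where knockout progenitors were also deeper (median 15598 against 11150 UMIs). Free RNA is no blank for these genes, since barcodes of 1 to 100 UMIs in the homeostasis library held members at 1733 CPM, and the part of free RNA in the low counts was not tested. Doublets within a tag were not called, and their part in the shares was not tested.

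The higher share after 5-FU was seen in each kind of progenitor. Neutrophil-primed cells were replication-high in 50.6% (240 of 474) of wild-type and 65.1% (112 of 172) of knockout cells, a difference of 14.5 percentage points (5.85 to 22.6). In megakaryocyte-erythroid-primed cells the shares were 50.1% (248 of 495) and 65.6% (297 of 453), a difference of 15.5 percentage points (9.18 to 21.6). Marker-low cells had 34.6% (370 of 1068) and 43.7% (329 of 753), a difference of 9.05 percentage points (4.50 to 13.6). Lymphoid-primed cells had 19.2% (58 of 302) and 25.4% (33 of 130), and their difference of 6.18 percentage points (-2.07 to 15.2) had an interval on both sides of 0. Members higher in knockout were 34 of 39 in neutrophil-primed cells (all genes 45.2%), 38 of 39 in megakaryocyte-erythroid-primed cells (46.9%), 39 of 39 in marker-low cells (43.6%) and 33 of 36 in lymphoid-primed cells (47.1%). The mixed cells that had been left out gave 25.95% (184 of 709) and 26.9% (119 of 443). At homeostasis the 4 classes differed by between -1.87 and 1.10 percentage points, each with an interval on both sides of 0, while the mixed cells gave 38.5% (1310 of 3407) and 31.6% (341 of 1079), a difference of -6.85 percentage points (-10.01 to -3.58).

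**Figure D4:**
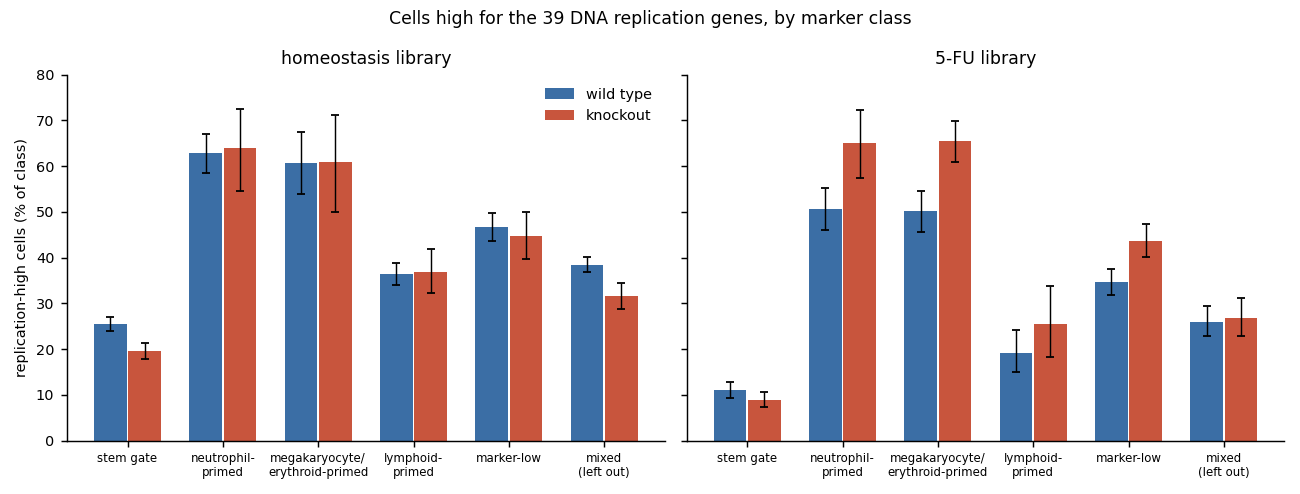
Bars give the percent of cells of each marker class that were replication-high in wild type (blue) and knockout (red), with exact 95% binomial intervals, at homeostasis (left) and after 5-FU (right). After 5-FU the knockout bar is the taller in every class but the stem gate, by the least in the mixed cells, and at homeostasis it is clearly the shorter in the stem gate and the mixed cells.

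In the homeostatic stem gate the replication-high share was lower in cells with more stem markers. Knockout cells in that gate held more stem markers on average than wild-type cells (4.39 against 3.96 of 9). Among cells with exactly 3 stem markers 34.6% (408 of 1179) of wild-type and 29.1% (147 of 506) of knockout cells were replication-high, a difference of -5.55 percentage points (-10.24 to -0.665). At 4 markers the shares were 22.2% (213 of 961) and 22.02% (120 of 545), a difference of -0.146 percentage points (-4.41 to 4.30). With 5 or more they were 15.4% (116 of 753) and 11.6% (90 of 778), a difference of -3.84 percentage points (-7.28 to -0.414). In both genotypes the share was thus lower the more stem markers a cell held, and the gap with 3 markers was near that of the whole gate, while the gap with 4 markers was near 0. The part of the marker difference in the gap was not tested.

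The level within replication-high and replication-low cells was then compared, with the side of a cell set for each member by the other 38. Each value is the sum of the 39 members' means, and each mean was taken over its own set of cells. The low side is capped by the threshold on the other members' UMIs and the high side is not. How far low cells could differ was thus limited by the split itself. In replication-low cells the genotypes were near each other in every gate. Wild-type and knockout cells summed to 3.84 and 3.82 member UMIs per cell (log2 -0.0049) in the homeostatic stem gate and 4.27 and 4.08 (log2 -0.065) in progenitors. After 5-FU they summed to 3.99 and 3.83 (log2 -0.058) in the stem gate and 4.64 and 4.71 (log2 0.020) in progenitors. Replication-high cells differed more. They summed to 12.3 and 11.4 member UMIs per cell (log2 -0.11) in the homeostatic stem gate and 15.8 and 17.5 (log2 0.15) in progenitors after 5-FU, the same signs as the pool sums. With sides set by all 39 members, high cells of the homeostatic stem gate held means of 13.4 and 12.8 and low cells 3.34 and 3.37. High progenitors after 5-FU then held means of 16.4 and 17.9, and low ones 3.99 and 4.01. In homeostatic progenitors replication-high cells summed to 14.2 and 15.5 member UMIs per cell (log2 0.13), where the difference in share turned sign with the alternative. Stem-gate cells of the high side after 5-FU summed to 10.8 and 13.7 member UMIs per cell (log2 0.35). By all 39 members that side held 140 and 105 cells, with means of 12.7 and 15.2. No interval was computed for these levels, and the difference in share there had an interval on both sides of 0.

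Within replication-high progenitors after 5-FU, 34 of 39 members were higher in knockout (median log2 0.17). The share of all genes was not computed there. Fen1, already the highest member in the pool of these progenitors, stood at 0.43 (0.17 to 0.69), Cdc6 at 0.36 (0.026 to 0.69) and Mcm2 at 0.36 (0.16 to 0.57). Rrm2 stood at 0.25 (-0.019 to 0.51) and Pcna at 0.14 (0.015 to 0.26). Mcm6 was nearly level at 0.040 (-0.10 to 0.18).

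The members did not all peak in the same cells. All classified cells, mixed ones included, were split by the other 38 members and by the UMIs of 25 G2 and mitotic genes (high from 4 UMIs at homeostasis and 5 after 5-FU). For Mcm2 in homeostatic wild-type cells this gave 5551 cells low for both, 2117 replication-high and G2/M-low, 1431 high for both and 700 G2/M-high alone. From the first to the second state every member was higher in each of the 4 pools. Not every rise was beyond its counting interval (Gins3 in 5-FU knockout cells at 0.70, -0.16 to 1.47). Since the second state was chosen for high UMIs of the other members, a rise was in part built into the split. On the average of the pools' log2 ratios the range was widest for Mcm10 (4.45, 3.72 to 4.98 over pools), Dscc1 (3.37), Hells (3.24), E2f1 (3.12) and Cdc45 (3.04). The first ranks rest on few UMIs in the cells low for both. At homeostasis Mcm10 had 24 there in wild type and 4 in knockout (counting interval of the knockout ratio 3.13 to 6.61). Dscc1 had 47 and 14 (2.59 to 4.47 in knockout). It was narrowest for Gins4 (0.67), Rfc1 (0.67), Pold3 (0.82), Rfc2 (0.87) and Rpa1 (0.88). The order of the 39 members was alike in the pools, with a Spearman correlation over members of between 0.852 and 0.922 for the 6 pairs of pools. Pools of 1 library share depth and processing, and the members within a cell share their UMIs, so this is a description.

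From replication-high G2/M-low cells to cells high for both, Mcm2, Mcm4 and Mcm6 were near level or lower on average while most other members were higher still. In wild-type homeostatic cells Rrm2 ran through 0.008, 0.047 and 0.219 UMIs per cell in the cells low for both, replication-high only and high for both. Mcm6 ran through 0.294, 0.934 and 0.749 UMIs per cell, and so was lower in the last state than in the one before. Pcna lay between with 0.289, 0.834 and 1.16 UMIs per cell. After 5-FU the same cells gave Rrm2 0.00945, 0.106 and 0.464 UMIs per cell, Mcm6 0.284, 1.07 and 0.977 UMIs per cell and Pcna 0.383, 0.964 and 1.65 UMIs per cell. Averaged over pools the log2 ratio of the last step was 2.29 for Rrm2 (1.81 to 3.01), 1.56 for Mcm10, 1.25 for Cdc45, 1.20 for Rrm1 and 1.17 for Gins3. At the other end stood Mcm6 (-0.23, -0.51 to 0.044), Mcm2 (-0.077), Mcm4 (-0.0014, -0.20 to 0.35), Rfc2 (0.026) and Rfc3 (0.11). E2f1 (0.18), Cdt1 (0.19) and Gins2 (0.28) sat near the licensing ring, and Cdc6 (0.73), Pcna (0.65) and Slbp (0.60) above it. For this step the Spearman correlation between pools was 0.804 to 0.919. Of the 31 members with a window, E2F-type letters were found for 8 of the 15 with the wider ranges and 6 of the 16 others. Mcm10, whose window stops before a form could be complete, was counted as having none.

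**Figure D5:**
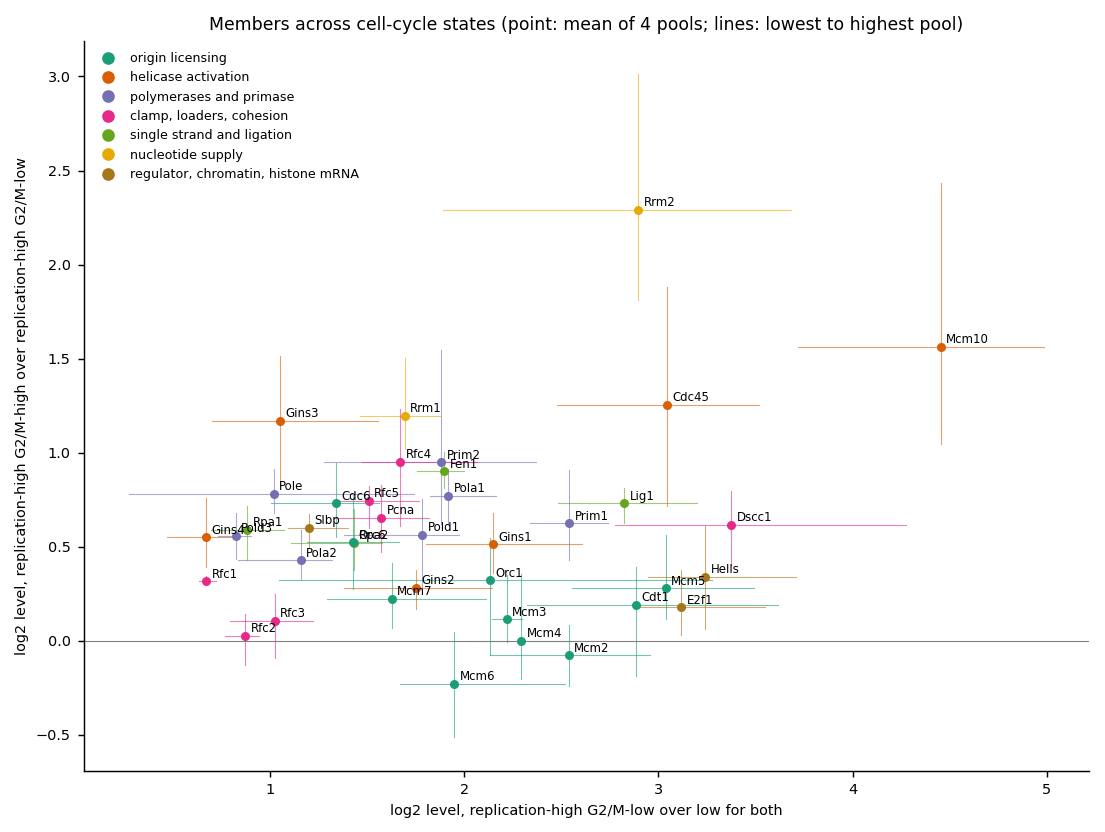
Each point is a member, placed by its log2 ratio between replication-high G2/M-low cells and cells low for both (x) and between cells high for both and replication-high G2/M-low cells (y), averaged over 4 pools, with lines from the lowest to the highest pool and colours by role. Mcm10 lies farthest right at 4.45, Rrm2 highest at 2.29, and Mcm2, Mcm4 and Mcm6 at or below 0 on the y axis.

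Other genes of replication and the genes of division were set beside the members. Of a list of 46 further replication genes, 36 of 46 were lower in the homeostatic knockout stem gate (median -0.14, from -0.68 for Recql4 to 0.44 for Chtf8), and 39 of 46 were higher in progenitors after 5-FU (median 0.23, from -0.50 for Chtf8 to 0.68 for Pole3). Of all tested genes 49.6% and 44.2% were higher in these comparisons. In homeostatic progenitors 29 of 46 were higher (median 0.036), against 47.4% of tested genes. In the stem gate after 5-FU this list was split, 23 higher and 22 lower of 45, where 47.8% of tested genes were higher. The 25 G2 and mitotic genes were farther from 0 than the members in the homeostatic stem gate. They summed to 1179 CPM in wild type and 779.9 in knockout (log2 -0.60, -0.63 to -0.56), and 15 of 25 were at least 1.5-fold lower, against 0 of the 39 members and 4.91% of all tested genes. In progenitors after 5-FU they summed to 1776 and 2283 CPM (log2 0.36, 0.35 to 0.38) with 25 of 25 higher, and in homeostatic progenitors to 1748 and 2024 CPM (log2 0.21, 0.19 to 0.24), also with 25 of 25 higher. In the stem gate after 5-FU 18 of these 25 were lower (log2 of the sum -0.12, -0.16 to -0.073). Cells high for G2 and mitotic genes made up 13.8% of wild-type and 7.49% of knockout cells in the homeostatic stem gate, and 22.1% and 29.3% of progenitors after 5-FU.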

How the data were processed

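LSK cells were profiled in 10x Chromium 3' libraries with hashtag antibodies, 1 library for homeostasis and 1 for 5-FU. The deposited values are raw UMI counts per gene and barcode, which the authors made with Cell Ranger (different versions per the file headers). No source read here names the genome build of the matrices, and the submitters' processing notes name mm9, Cell Ranger, Seurat and DESeq2 with no role. The homeostasis table is unfiltered, so cells were called from 2921 UMIs, and the 5-FU table holds 12753 barcodes called by the authors. Its barcodes and those of the other library shared 76 sequences. The homeostasis rows were read with the 5-FU gene list, and log counts over genes correlated at 0.926 in that order and at most 0.395 with rows shifted by 1.

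Genotype came from HTODemux (Seurat 5.3.0, R 4.3.3, positive quantile 0.99), with the tag of each genotype from the study's methods. Doublets across tags were dropped, those within a tag were not called, and the lowest and highest 2% of cells by UMIs, genes and mitochondrial share and cells with at least 2 UMIs of 9 lineage genes were left out. UMIs were summed per pool, genes with at least 50 UMIs over both pools were compared with 0.5 UMIs added, and intervals are exact conditional binomial, Clopper-Pearson or Newcombe at 95%. They cover counting error only. Scripts ran in Python 3.11.15 (numpy 2.4.6, scipy 1.17.1) and were checked on simulated data. Members and lists were chosen with earlier results of these data known. Named in full were 10 fixed genes and the 5 highest and 5 lowest members per comparison. Alternatives covered tag calling, gates, filters, thinning, scaling, weighting and thresholds. Promoters are RefSeq windows (GRCm38.p6) and positions GENCODE M21. The stem list holds a gene that is not reported here.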

Additional observations from a re-analysis of the deposited data

Results flagged for a closer look

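Ratios of knockout over wild type had opposite signs in groups that were compared in the same way. The summed members had a log2 ratio of knockout over wild type of -0.18 in the stem gate at homeostasis, against 0.057 in the stem gate after 5-FU and 0.080 in progenitors at homeostasis. No direction is read from the 5-FU stem value, which turned to -0.041 and -0.035 under alternatives, and the progenitor value came down to 0.000502 under another. In the stem gate Mcm2 stood at -0.28 at homeostasis and 0.24 after 5-FU, Mcm5 at -0.36 and 0.28, and Orc6 at -0.17 and 0.43. These differences between groups were not tested, each value is 1 pool against 1 pool, and the libraries coincide with the conditions.

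Signal was also present in barcodes that entered no comparison. Of cells with no tag call, 29.7% were replication-high at homeostasis and 33.1% after 5-FU, at the threshold of each library. Of doublets across tags, 47.9% were at homeostasis and 44.2% after 5-FU. Doublets within a tag stayed among the 11579 wild-type and 4628 knockout barcodes tagged at homeostasis, and their number in each pool is not known. Barcodes of 1 to 100 UMIs in the homeostasis library held the summed members at 1733 CPM.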

How the results depend on the processing

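Of 175 recomputed summary values, 109 stayed within their counting interval or 1.5 times the count, 64 moved beyond it and 2 others, summed ratios of the 5-FU stem gate, turned sign from an interval clear of 0. Differences in replication-high share whose interval spanned 0 also turned sign, in the 5-FU stem gate and homeostatic progenitors. The summed ratio ranged from -0.23 to -0.16 in the homeostatic stem gate and from 0.21 to 0.33 in 5-FU progenitors over the alternatives run. When cells had to hold at least 80% of their hashtag UMIs in 1 tag, the knockout to wild-type log2 ratio of the sum was 0.038 (homeostatic progenitors) and 0.10 (5-FU stem gate), the replication-high difference in percentage points was 5.36 (homeostatic progenitors), and members past 1.5-fold numbered 3 (homeostatic stem gate), 4 (5-FU stem gate) and 2 (5-FU progenitors). With tags called by a 2-component mixture, the knockout to wild-type log2 ratio of the sum was -0.23 (homeostatic stem gate), 0.000502 (homeostatic progenitors) and 0.21 (5-FU progenitors), the wild-type stem to progenitor log2 ratio was -0.51 (homeostasis) and -1.02 (5-FU), the replication-high difference in percentage points was -4.72 (homeostatic progenitors) and 7.57 (5-FU progenitors), and members past 1.5-fold numbered 1 (homeostatic stem gate), 0 (5-FU stem gate) and 0 (5-FU progenitors). With gates from 2 markers, the knockout to wild-type log2 ratio of the sum was 0.14 (homeostatic progenitors), 0.11 (5-FU stem gate) and 0.21 (5-FU progenitors), the wild-type stem to progenitor log2 ratio was -0.58 (homeostasis) and -1.19 (5-FU), the replication-high difference in percentage points was -8.99 (homeostatic stem gate), members past 1.5-fold numbered 3 (homeostatic stem gate), 2 (homeostatic progenitors) and 4 (5-FU stem gate), and members higher in knockout numbered 13 (homeostatic stem gate). With gates from 4 markers, the knockout to wild-type log2 ratio of the sum was 0.040 (homeostatic progenitors) and -0.035 (5-FU stem gate), the wild-type stem to progenitor log2 ratio was -0.59 (homeostasis) and -1.01 (5-FU), and members past 1.5-fold numbered 2 (homeostatic stem gate) and 2 (5-FU progenitors). Without cell filters, the knockout to wild-type log2 ratio of the sum was 0.32 (5-FU progenitors), the wild-type stem to progenitor log2 ratio was -0.52 (homeostasis), and members past 1.5-fold numbered 1 (homeostatic stem gate), 2 (5-FU stem gate) and 3 (5-FU progenitors). With cells thinned to 6000 UMIs, the knockout to wild-type log2 ratio of the sum was -0.23 (homeostatic stem gate), 0.10 (homeostatic progenitors) and 0.18 (5-FU stem gate), the wild-type stem to progenitor log2 ratio was -0.38 (homeostasis) and -1.08 (5-FU), the replication-high difference in percentage points was -10.05 (homeostatic stem gate) and 0.831 (5-FU stem gate), members past 1.5-fold numbered 1 (homeostatic stem gate) and 4 (5-FU stem gate), and members higher in knockout numbered 3 (homeostatic stem gate). Under median-of-ratios scaling, the knockout to wild-type log2 ratio of the sum was 0.33 (5-FU progenitors), and the wild-type stem to progenitor log2 ratio was -0.63 (homeostasis) and -1.21 (5-FU). With each cell weighted equally, the knockout to wild-type log2 ratio of the sum was -0.041 (5-FU stem gate) and 0.30 (5-FU progenitors), the wild-type stem to progenitor log2 ratio was -0.92 (5-FU), members past 1.5-fold numbered 1 (homeostatic stem gate) and 2 (5-FU progenitors), and members higher in knockout numbered 17 (5-FU stem gate). With replication-high from 20 member UMIs, the replication-high difference in percentage points was -0.931 (homeostatic stem gate), 0.723 (5-FU stem gate) and 8.23 (5-FU progenitors). With HTODemux run without barcodes that had no tag UMI, the knockout to wild-type log2 ratio of the sum was 0.31 (5-FU progenitors), and members past 1.5-fold numbered 2 (5-FU stem gate) and 2 (5-FU progenitors). With mixed cells added to progenitors, the knockout to wild-type log2 ratio of the sum was 0.0090 (homeostatic progenitors), the wild-type stem to progenitor log2 ratio was -0.41 (homeostasis) and -0.97 (5-FU), and the replication-high difference in percentage points was -3.60 (homeostatic progenitors). The cause of these moves was not tested. Shares of all genes past 1.5-fold or higher in knockout were not computed for the alternatives, so counts of members are not read as moves of the members. Running HTODemux without tagless barcodes and adding mixed cells were alternatives chosen after seeing the data. No paired analysis was possible because the labels share no replicate numbers, and with 1 pool per genotype no replicate could be left out. Depth limits the sparse members, since Mcm10 rested on 43 and 72 UMIs in the 5-FU stem gate.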
